A study of Mus musculus with 8 samples.

Results

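Excitation-contraction coupling turns the electrical signal of a muscle fibre into a calcium signal, and 10 of its genes were followed here: Cacna1s, Cacng1, Ryr1, Trdn, Jph2, Casq1, Casq2, Atp2a1, Sln and Pvalb. They were chosen by name, and every non-control spot carrying one of these names was taken, which gave 14 probes among 39429 on the array. After 1 probe per gene was kept, these were 10 of 19655 genes tested. All 14 probes were well above background on all 8 arrays, and none was saturated.

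The arrays profiled cultured satellite cells, which are muscle stem cells. The source was the EDL (extensor digitorum longus), a fast muscle of the hindlimb. The mice labelled Dnmt3a-KO, after the de novo DNA methyltransferase Dnmt3a, and their WT littermates were 8 weeks old and labelled male. Cells of both genotypes had 5 days in growth medium, were plated again at equal number, and were moved to differentiation medium, in which such cells fuse into myotubes. RNA was taken on day 2, 4, 5 or 6 of differentiation, with 1 array per genotype and day. The groups are thus WT and Dnmt3a-KO on each of 4 days, with no further agent in any of them. The labels name neither the promoter that drives the deletion nor the number of mice pooled.

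In resting muscle, calcium is held inside the sarcoplasmic reticulum. At the triad, where a tubule of the surface membrane meets that store, the dihydropyridine receptor senses the voltage and opens the ryanodine receptor, and the released calcium starts contraction. Pumps then return the calcium to the store, where luminal proteins bind it. Satellite cell progeny assemble this machinery as they form myotubes.

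Signals are given as scaled signal, the spot intensity divided by the 75th percentile of its array, and differences as log2 values. A level is compared only within a probe. The targeted gene checks the labels first: the Dnmt3a signal in the knockout was 46.2%, 19.8%, 21.7% and 19.1% of WT on days 2, 4, 5 and 6, though no source here says where its probe lies relative to the deleted part. The 2 arrays of day 2 stood apart before any result. They lay on their own slide and were read with scanner G2505C and their own software version, whereas the 6 later arrays lay on slides 2 and 3 and were read with scanner G2505B. They also differed in sex-linked transcripts. Xist was well above background on 0 of 2 arrays of day 2 and on 6 of 6 later arrays, and Ddx3y, Eif2s3y, Kdm5d and Uty on 2 of 2 and 0 of 6, which goes against the label male for the later days. Of the culture's own markers, the scaled signals of the satellite cell and myoblast list of 8 genes summed to 183 to 188 on day 2 and to 88.4 to 108 later, with Myf5 above background on no array. The 7 measured myotube markers summed to 297 to 327 on day 2 and to 357 to 412 later, and all 7 were above background on all 8 arrays. Tnnt3, with a mean log2 signal of 7.48, weighs most in that sum. Gene by gene, 3 of the 7 rose over the days and 1 fell, Ttn at -0.57 log2 per day (limma adjusted p = 0.0082). In such bulk RNA, fewer cells of a type and less RNA per cell cannot be told apart. The labels do not say whether days came from separate animals, so the p-values measure the spread between these arrays, part of which may be technical. The slope test takes the 2 arrays of a day as independent although they share a slide. Its SE and p may therefore understate the uncertainty.

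The promoters of these genes give the sequence context for genes that moved in different ways over the days. RefSeq windows of 250 bases before the start on GRCm38.p6 were at hand for 7 of the 10 genes, with 2 starts each for Jph2 and Pvalb, hence 9 windows. Shown 5' to 3' on the strand of the gene are 4 of them, for genes whose signals rose (Cacna1s, Casq1), fell (Ryr1) or passed no test (Atp2a1) over the days. They are Cacna1s at chr1:136052561-136052810 (plus strand), Casq1 at chr1:172219896-172220145 (minus strand), Atp2a1 at chr7:126463074-126463323 (minus strand) and Ryr1 at chr7:29125152-29125401 (minus strand). Capitals mark the E-box CANNTG, the core that myogenic regulatory factors bind, searched on both strands.
Cacna1s: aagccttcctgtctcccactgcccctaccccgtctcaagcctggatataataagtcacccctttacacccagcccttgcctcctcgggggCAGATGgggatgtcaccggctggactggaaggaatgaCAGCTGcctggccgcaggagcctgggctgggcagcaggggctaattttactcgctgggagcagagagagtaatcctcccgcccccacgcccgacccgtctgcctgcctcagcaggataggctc
Casq1: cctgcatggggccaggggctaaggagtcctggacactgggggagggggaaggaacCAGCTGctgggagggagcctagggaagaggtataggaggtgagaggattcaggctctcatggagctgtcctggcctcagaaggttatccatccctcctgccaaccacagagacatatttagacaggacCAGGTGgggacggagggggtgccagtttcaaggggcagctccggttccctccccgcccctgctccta
Atp2a1: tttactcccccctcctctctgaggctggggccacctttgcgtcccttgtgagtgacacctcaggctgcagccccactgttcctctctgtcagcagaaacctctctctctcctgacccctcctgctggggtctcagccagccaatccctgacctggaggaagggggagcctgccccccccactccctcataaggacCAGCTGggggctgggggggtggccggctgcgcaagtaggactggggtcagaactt
Ryr1: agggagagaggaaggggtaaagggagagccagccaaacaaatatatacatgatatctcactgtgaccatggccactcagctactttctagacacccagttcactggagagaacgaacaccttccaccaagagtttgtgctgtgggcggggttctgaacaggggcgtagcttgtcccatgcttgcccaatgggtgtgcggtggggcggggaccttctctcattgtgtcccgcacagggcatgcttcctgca

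Cacna1s held E-boxes beginning 160 and 123 bases before the start, Casq1 at 195 and 67 and Atp2a1 at 55, and Ryr1 held 0. An E-box occurred in the windows of 6 of the 7 genes and in 66.2% of all 32851 windows of this length in the table, so its presence is common. The form CAGCTG, one of the sequences that CANNTG covers, occurred in the windows of 4 of the 7 genes (Cacna1s, Casq1, Atp2a1 and Jph2) and in 13.0% of all windows. The 2 windows of Jph2 overlap and hold the same single site. The MCAT element CATTCC was found in 1 window, that of Cacna1s, and in 12.6% of all. A MEF2 element was found in 2 windows, of Casq2 and of 1 Pvalb start, and in 2.92% of all, and a CArG box in 0 windows and in 1.47% of all. CpG, the dinucleotide that Dnmt3a methylates, occurred 3 to 9 times in 8 of the windows and 23 times at the other Pvalb start, against a median of 6 over all windows. Methylation was not measured here, and these matches only describe the windows.

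**Figure D1:**
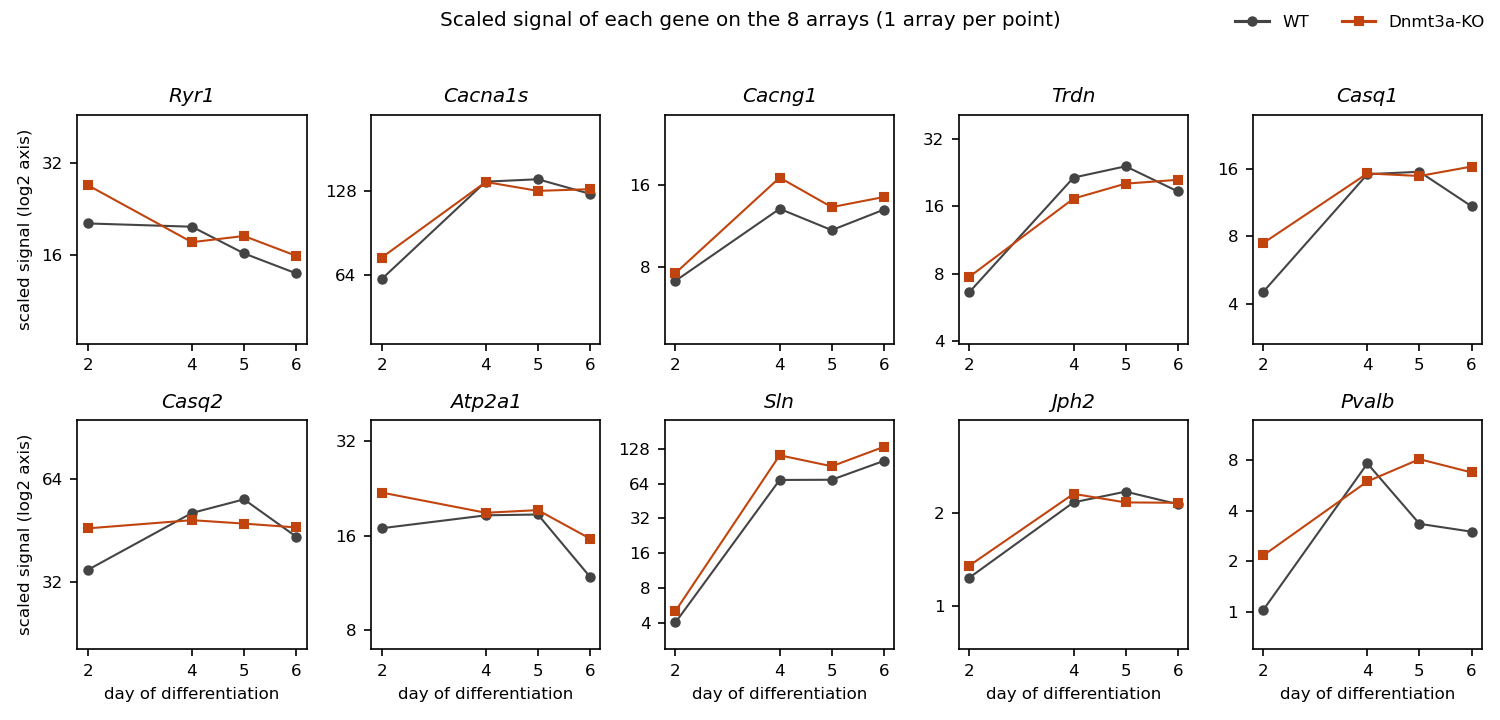
Scaled signal (log2 axis) of each of the 10 genes against the day of differentiation, with 1 array per point, WT as grey circles and Dnmt3a-KO as orange squares. Sln went from 4.01 and 5.04 on day 2 to 68.8 or more on every later array, whereas Ryr1 was lower on day 6 than on day 2 in both genotypes.

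Cacna1s and Cacng1, subunits of the dihydropyridine receptor, both passed the slope test over the days. Cacna1s, the pore-forming and voltage-sensing subunit of the dihydropyridine receptor, was read by a probe at chr1:138016020-138016079 (mm9, plus strand). In the order of days 2, 4, 5 and 6, its scaled signal was 61.7, 138, 140.4 and 125 in WT and 73.6, 137, 128 and 129 in Dnmt3a-KO. All 6 later arrays were above both arrays of day 2, and the genotypes overlapped. Averaged on the log2 scale, days 4 to 6 were 2.17-fold above day 2 in WT and 1.78-fold in Dnmt3a-KO. The slope over days was 0.24 ± 0.07 log2 per day (SE, 8 arrays, limma adjusted p = 0.0288). The knockout differed from WT by 0.042 ± 0.16 log2 (SD over 4 days, adjusted p = 0.855), with a 95% interval from -0.22 to 0.30. Here and below, the interval is built from that SD alone. The limma p rests on a variance shared in part with all genes, so the interval and the p can differ. A second probe of Cacna1s gave a slope of 0.11 log2 per day and a genotype difference of 0.12 ± 0.25. The slope call was lost with the mean of all probes (limma adjusted p = 0.0613), with quantile scaling (0.0550) and without the filter on dim probes (0.0623). Other alternatives lost it too, and it held in 10 of 19.

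Cacng1, the gamma subunit of the same receptor, was read at chr11:107565096-107565155 (mm9, minus strand). Its scaled signal in WT was 7.09, 13.0, 10.9 and 12.9 on days 2, 4, 5 and 6, and in Dnmt3a-KO 7.57, 16.96, 13.2 and 14.4. The knockout array was the higher one on each of the 4 days, although the ranges of the genotypes overlapped across days. The difference was 0.23 ± 0.13 log2, or 1.17-fold, with an interval from 0.024 to 0.43, and it did not pass after adjustment over all genes (limma adjusted p = 0.348). The signal rose over the days by 0.21 ± 0.07 log2 per day (adjusted p = 0.0405). This call was lost with quantile scaling (0.0629), with the percentile over detected probes (0.0521) and with a floor 4 times higher (0.0511), among other alternatives, and held in 8 of 19.

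Ryr1, the calcium release channel of the sarcoplasmic reticulum, was the gene whose signal fell. The annotated position of its probe spans 699 bases at chr7:29788789-29789487 (mm9, minus strand), more than the 60 bases most probes span. Its scaled signal was 20.3, 19.8, 16.2 and 13.9 in WT on days 2, 4, 5 and 6, and 27.2, 17.6, 18.5 and 15.9 in Dnmt3a-KO. Day 6 held the lowest array of each genotype and day 2 the highest. The slope was -0.16 ± 0.04 log2 per day (limma adjusted p = 0.0181), and day 6 stood at 0.686 of day 2 in WT and 0.587 in Dnmt3a-KO. The knockout was higher on 3 of 4 days, by a mean of 0.16 ± 0.24 log2 (adjusted p = 0.584, interval from -0.23 to 0.54).

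Both genes of triad structure among the 10 rose. Trdn encodes triadin, which ties calsequestrin to the ryanodine receptor, and Jph2 encodes a junctophilin, which bridges the store and the surface membrane. Trdn (probe at chr10:32919981-32920040, mm9, plus strand) read 6.60, 21.5, 24.2 and 18.6 in WT and 7.73, 17.3, 20.2 and 21.0 in Dnmt3a-KO on days 2, 4, 5 and 6. Both arrays of day 2 were below all 6 later ones, and the slope was 0.39 ± 0.09 log2 per day (limma adjusted p = 0.0160). The knockout was higher on days 2 and 6 and lower on days 4 and 5, with a mean difference of -0.043 ± 0.28 log2 (adjusted p = 0.902, interval from -0.49 to 0.41). The other 2 Trdn probes gave genotype differences of 0.21 ± 0.52 and -0.030 ± 0.33, so the sign depended on the probe.

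Jph2 (chr2:163163526-163163585, mm9, minus strand) moved within a narrow band. It read 1.23, 2.16, 2.34 and 2.13 in WT and 1.35, 2.30, 2.16 and 2.15 in Dnmt3a-KO on days 2, 4, 5 and 6. The genotypes overlapped fully, and their difference was the one with the smallest spread, 0.030 ± 0.11 log2 (limma adjusted p = 0.880, interval from -0.14 to 0.20). The slope was 0.19 ± 0.05 log2 per day (adjusted p = 0.0269).

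Of the calsequestrins, which bind calcium inside the store, Casq1 passed the slope test and Casq2 did not, and the difference between them was not tested. Casq1 is the fast skeletal form and Casq2 the form of cardiac and slow muscle. The position of the Casq1 probe spans 1504 bases at chr1:174140602-174142105 (mm9, minus strand), and it read 4.52, 15.1, 15.5 and 10.9 in WT and 7.45, 15.2, 14.8 and 16.3 in Dnmt3a-KO. Every later array exceeded both arrays of day 2, and the slope was 0.32 ± 0.10 log2 per day (limma adjusted p = 0.0358). The genotypes lay together on days 4 and 5 and apart on days 2 and 6, where the knockout was 0.72 and 0.59 log2 higher. The mean difference was 0.31 ± 0.40 (adjusted p = 0.478, interval from -0.32 to 0.95).

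Casq2 (chr3:101949827-101949884, mm9, plus strand) passed neither test. It read 34.7, 50.9, 55.7 and 43.4 in WT and 45.9, 48.5, 47.4 and 46.2 in Dnmt3a-KO, so the 4 knockout arrays differed little among themselves and lay within the WT range. Its slope of 0.055 ± 0.050 log2 per day did not pass (limma adjusted p = 0.377). The genotype difference was 0.047 ± 0.27 (adjusted p = 0.886, interval from -0.38 to 0.48).

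The uptake arm held the gene that moved most and one that passed no test. Atp2a1 encodes SERCA1, the fast muscle calcium pump, and Sln encodes sarcolipin, a small membrane peptide that inhibits it. Atp2a1 (chr7:133591703-133591762, mm9, minus strand) read 16.9, 18.6, 18.7 and 11.8 in WT and 22.0, 18.9, 19.3 and 15.7 in Dnmt3a-KO on days 2, 4, 5 and 6. The lowest array of each genotype was that of day 6, but the slope of -0.10 ± 0.05 log2 per day did not pass (limma adjusted p = 0.137). The knockout was higher on 4 of 4 days, by 0.38, 0.027, 0.046 and 0.40 log2, and the mean of 0.21 ± 0.21 did not pass (adjusted p = 0.440, interval from -0.11 to 0.54).

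Sln (chr9:53701574-53701633, mm9, plus strand) read 4.01, 68.8, 69.0 and 100.6 in WT and 5.04, 113, 90.3 and 133 in Dnmt3a-KO. The step lay between day 2 and day 4, 17.1-fold in WT and 22.3-fold in Dnmt3a-KO, and by day 6 the signal was 25.1-fold and 26.4-fold that of day 2. Its slope of 1.17 ± 0.20 log2 per day (limma adjusted p = 0.0117) ranked 51 among the slopes of 19655 genes, largest first. The knockout array was the brighter one on every day, by 0.33, 0.71, 0.39 and 0.40 log2. The mean was 0.46 ± 0.17, or 1.37-fold, with an interval from 0.19 to 0.73, and after adjustment over all genes it did not pass (unadjusted p = 0.00331, adjusted p = 0.1999).

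Pvalb encodes parvalbumin, the soluble calcium buffer of fast fibres that speeds relaxation. Its probe at chr15:78021951-78022010 (mm9, minus strand) read 1.03, 7.59, 3.34 and 3.0 in WT and 2.17, 5.95, 8.05 and 6.72 in Dnmt3a-KO on days 2, 4, 5 and 6. The knockout was at least 2-fold higher on days 2, 5 and 6, by 1.07, 1.27 and 1.16 log2, and day 4 went the other way, at -0.35. The mean of 0.79 ± 0.77 had the widest spread of the 10 genes and did not pass (limma adjusted p = 0.377, interval from -0.43 to 2.01). The second Pvalb probe had the same sign on each day and a mean of 0.88 ± 0.84. The slope of 0.41 ± 0.17 log2 per day did not pass either (adjusted p = 0.0801). It passed in 5 of 19 alternatives, the mean of all probes (limma adjusted p = 0.0494) among them, and was -0.29 without day 2. The second probe gave a slope of 0.61.

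Across the 10 genes, then, 0 passed the genotype test, against 0.0102% of all genes (2 of 19655). The test rests on 4 day differences and 3 residual degrees of freedom. Unadjusted p fell under 0.05 for 3 of the 10 genes (Sln, Cacng1 and Pvalb) and for 2531 of all genes. For Pvalb the limma p was 0.0437, whereas the interval from its own SD, -0.43 to 2.01, includes 0. The median difference was 0.19 log2 for the 10 genes and -0.012 for all genes. Cacng1, Atp2a1 and Sln were higher in the knockout on all 4 days, as were 10.9% of all genes, and 0 of the 10 were lower on all 4.

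The days differed in how the group leaned. On day 2 all 10 genes were higher in Dnmt3a-KO, by 0.095 to 1.07 log2 with a median of 0.35, where 51.6% of all genes were higher. On day 6 all 10 were higher again, by 0.015 to 1.16 with a median of 0.18, against 54.4%. On days 4 and 5, 5 of 10 were higher, with medians of 0.0038 and -0.0081, against 47.3% and 40.8%. Day 2 and day 6 kept all 10 higher under each of the scalings and background corrections tried. Each day is 1 array per genotype, and lists described below leaned alike. On days 2, 4, 5 and 6, the median was 0.26, -0.16, -0.028 and 0.11 for 12 fast and developmental contractile genes. It was 0.081, -0.089, -0.13 and 0.053 for 85 other calcium handling genes. For 12 slow and cardiac contractile genes it was below 0 on every day.

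At a 2-fold threshold, with 1 array a group and no test, Pvalb was the 1 gene of the 10 that was higher in the knockout on day 2, 5 or 6, and 0 were lower on any day. With a background correction added after the data were seen (normexp without the spots far dimmer than their background), 0 passed this threshold on day 2. Of all genes, 1.89%, 1.46%, 0.916% and 1.3% were at least 2-fold higher on days 2, 4, 5 and 6, and 1.14%, 3.07%, 1.82% and 1.88% at least 2-fold lower. Sums of marker lists for other cell types differed between the genotypes on some of these days. The fibroblast list of 8 genes summed to 19.8 in WT and 5.38 in Dnmt3a-KO on day 4 and to 22.0 and 10.6 on day 6, with 5 of 8 above background on all arrays and Lum on none. On day 2 it was 6.79 and 6.38, and on day 5 34.7 and 37.4. Col1a1 and Col3a1 had its highest mean log2 signals, 2.03 and 1.90. Dcn and Pdgfra were 0.87 and 0.074 higher in the knockout on day 4, and Ly6a and Pdgfra 1.01 and 0.10 higher on day 6. The other tested genes of the list were lower on these 2 days. The myotube list was 327 in Dnmt3a-KO and 297 in WT on day 2, 370 and 403 on day 4, 363 and 412 on day 5, and 357 and 367 on day 6. The smooth muscle and pericyte list of 7 genes, 4 of them above background on all arrays, was 111 in Dnmt3a-KO and 155 in WT on day 4 and 116 and 147 on day 5. That sum mainly follows Acta2, whose mean log2 signal was 6.90, against 1.09 for the next tested gene, Cspg4. Acta2 was 0.47 and 0.36 log2 lower in the knockout on these days. On day 4, Cnn1, Pdgfrb, Notch3 and Cspg4 were lower too, at -3.78, -1.88, -0.54 and -0.52, whereas Rgs5 was 1.17 higher. On day 5, Rgs5, Notch3 and Cnn1 stood at -1.18, -0.997 and -0.0040, whereas Pdgfrb and Cspg4 were 0.33 and 0.26 higher. Cnn1 was above background on 7 of 8 arrays and Rgs5 on 5 of 8. The part of these cells in the genotype differences was not tested.

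**Figure D2:**
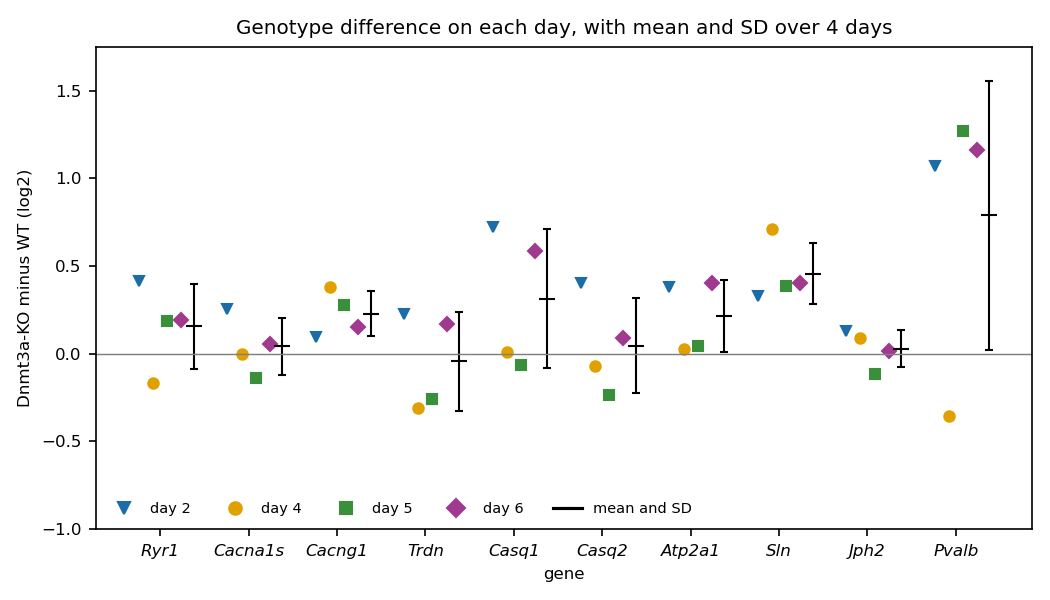
Difference between Dnmt3a-KO and WT (log2) for each of the 10 genes, with 1 symbol per day and a black bar for the mean and SD over 4 days. Sln, Cacng1 and Atp2a1 lie above 0 on every day, and Pvalb lies at 1.07 or more on days 2, 5 and 6 and at -0.35 on day 4.

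Over the days, 6 of the 10 genes rose (Sln, Trdn, Casq1, Cacna1s, Cacng1 and Jph2) and 1 fell (Ryr1), where 25.9% of all genes rose and 19.5% fell by the same limma test. The median slope was 0.22 log2 per day for the 10 genes and 0.027 for all genes. Comparing the mean of the 6 later arrays with that of the 2 arrays of day 2, 8 of the 10 genes were higher later, with a median of 0.93 log2, against 54.8% of all genes and a median of 0.090.

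These slopes rested on day 2. Without it, 0 of the 10 genes and 0% of all genes passed in limma (1573 had an unadjusted p under 0.05), and 2 of the 10 slopes stayed positive, Sln at 0.20 and Trdn at 0.019 log2 per day. Ryr1 kept the same size, -0.16 log2 per day over days 4 to 6, while Casq1, Cacna1s, Cacng1 and Jph2 turned to between -0.093 and -0.029. Without day 5, 0 of the 10 passed, and without the filter on dim probes 2 rose. With the slide as a block 0 passed too. Day 2 lay alone on slide 1, days 4 and 5 on slide 2 and day 6 on slide 3. That block thus leaves only the change from day 4 to day 5 and cannot test the step after day 2. Quantile scaling left 4 rising genes, the percentile over detected probes 5 and the higher floor 4. Of 19 alternatives, the slope call held in 13 for Sln, 13 for Trdn, 12 for Jph2, 11 for Casq1 and 11 for Ryr1. It held in 10 for Cacna1s and 8 for Cacng1. Day 2 also differs from the later days in slide, scanner, software and sex-linked transcripts, so time and these differences cannot be told apart.

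**Figure D3:**
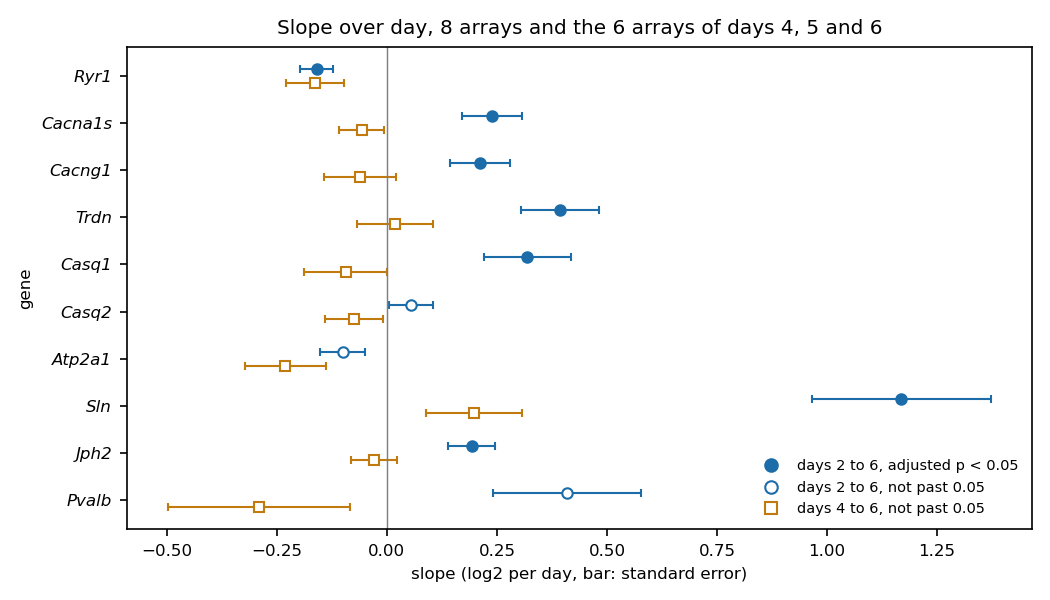
Slope of log2 signal per day with its standard error for each of the 10 genes, over all 8 arrays (blue circles, filled where the adjusted p was under 0.05) and over the 6 arrays of days 4 to 6 (open orange squares). The 6 filled rising slopes, from 0.19 to 1.17, shrink to between -0.093 and 0.20 without day 2, and Ryr1 stays at -0.16.

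The slopes of the genotypes were set side by side. In WT and Dnmt3a-KO they were 1.16 and 1.17 log2 per day for Sln, 0.41 and 0.37 for Trdn, 0.36 and 0.28 for Casq1, and -0.14 and -0.18 for Ryr1. They differed most in size for Casq2, at 0.11 and 0.0035. For the interaction of genotype and day, 0 of the 10 genes and 0% of all genes passed in limma, with 820 of 19655 at an unadjusted p under 0.05. With 2 residual degrees of freedom this does not show that the slopes were equal.

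Among themselves the 10 genes split by profile. Each gene was correlated over the 8 arrays with the mean profile of the other 9, as a description, since all share the arrays and the step after day 2. Casq1 at 0.98, Cacna1s at 0.98, Jph2 at 0.96, Trdn at 0.94, Cacng1 at 0.92, Sln at 0.90 and Pvalb at 0.90 (Pearson r) followed the group closely. Casq2 followed it less, at 0.75, and Atp2a1 at -0.14 and Ryr1 at -0.60 did not. Of the 45 pairs, 32 had a positive r over the 8 arrays, and 40 had one once each day was centred. With 1 array per genotype and day, centring leaves only the genotype differences given above, so the second count restates them. The share over all pairs of genes was not computed.

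The genes outside the group whose profile was most like its mean were Rora, a nuclear receptor, at r = 0.995, then Ccdc28a, Tceal5, Kcnma1, Abtb1 and Prss37, at 0.993 to 0.994. Kcnma1 encodes the large-conductance calcium-activated potassium channel. The slopes of these 6 genes were all positive, from 0.24 to 0.61 log2 per day.

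The wider machinery was read from a list of 97 other genes in 8 roles, of which 85 were tested, 11 were too dim and Cav3 had no usable spot on every array. Over the days 30 of the 85 rose and 12 fell, with a median slope of 0.10 log2 per day, beside the 25.9% and 19.5% of all genes. For the genotype 0 of 85 passed, with a median difference of -0.062 log2, and 8 were higher and 10 lower in the knockout on all 4 days, beside 10.9% and 11.8% of all genes. The interaction called 0. As for the 10 genes, these slopes include day 2. The 2 arrays of day 2 had 0 non-control spots with a processed signal at or below 0, against 4775 to 5797 on each later array. Among the genes named below, Atp2b2, Phkg1, Atp2b4 and Kcnj2 were dim, with mean log2 signals of -4.68, -4.28, -3.87 and -3.74. They were well above background on all 8 arrays. The part of this difference in the slopes of dim genes was not tested.

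Of 10 tested subunits and partners of voltage-gated calcium channels, 1 rose and 3 fell. The rise was that of Cacna1g, a T-type channel, at 0.53 ± 0.14 log2 per day (SE, limma adjusted p = 0.0222), but its probe was well above background on 4 of 8 arrays, so the slope is partly read from signals not above it. The T-type channel Cacna1h, at -0.34, and Cacna2d2, at -0.40, fell. Cacna2d1 and Cacnb1, the other subunits of the skeletal dihydropyridine receptor, had slopes of 0.23 and 0.13 that did not pass (adjusted p = 0.0891 and 0.0510). Stac3, the adaptor that couples the dihydropyridine receptor to Ryr1, fell too, by 0.20 log2 per day. Cacna1h had the largest positive genotype difference of the role, 0.85 ± 0.44 log2 (SD over 4 days, adjusted p = 0.2202), and was higher in the knockout on 4 of 4 days. Cacng7 had the largest negative one, -0.55 ± 0.073 (adjusted p = 0.106), and was lower on 4 of 4.

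Of 11 release channels and regulators, 2 rose and 1 fell. S100a1, a calcium sensor that acts on the ryanodine receptor, rose by 0.73 ± 0.13 log2 per day (limma adjusted p = 0.0117), and the calmodulin gene Calm3 by 0.17. Ryr3, the ryanodine receptor of immature muscle, fell by 0.45 ± 0.07 log2 per day (adjusted p = 0.00967), in the same direction as Ryr1. The genotype extremes were Fkbp1b, a channel-binding immunophilin, at 0.47 ± 0.23, and the inositol trisphosphate receptor Itpr2 at -0.33 ± 0.57. Neither passed.

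Of 13 triad and T-tubule genes, 5 rose and 1 fell. Sypl2, which encodes the triad protein mitsugumin 29, rose by 0.50 log2 per day and Jsrp1, which encodes a junctional protein, by 0.27, while dysferlin (Dysf) fell by 0.18. The junctophilin gene Jph3 passed at 0.37 log2 per day. The genotype extremes were Jph3 at 0.56 ± 0.44 log2 and Jph4 at -0.44 ± 0.52, and neither passed. Their probes were well above background on 5 and 4 of 8 arrays, so these values are partly read from signals not above it. Of 7 luminal proteins, 1 rose, Calu at 0.18 log2 per day. Their mean genotype differences all lay below 0, from Calr at -0.030 ± 0.090 to Dhrs7c at -0.35 ± 0.39. The median was -0.17, and none passed.

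Pumps and exchangers moved both ways, with 3 of 10 rising and 4 falling. Pln, which encodes phospholamban, a relative of sarcolipin, passed at 0.36 ± 0.12 log2 per day (limma adjusted p = 0.0439) from a probe well above background on 5 of 8 arrays. Atp2a3 rose by 0.26 and Atp2b4 by 0.11. The plasma membrane pump Atp2b2 fell by 0.38, the sodium-calcium exchanger Slc8a3 by 0.34 and the Golgi pump Atp2c1 by 0.30. The genotype extremes were 2310015B20Rik at 0.30 ± 0.16 and Atp2a3 at -0.28 ± 0.15. The gene 2310015B20Rik was higher in the knockout on 4 of 4 days.

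Among 12 genes of store-operated entry and mitochondrial uptake, 6 rose and 1 fell. Mcub, a subunit of the mitochondrial uniporter, rose by 0.48 log2 per day, the store sensor Stim1 by 0.35 and the entry channel Orai2 by 0.30, while Stim2 fell by 0.14. Orai2 had the largest positive genotype difference, 0.23 ± 0.10, which did not pass. Among 9 excitability genes, 2 rose and 2 fell. The potassium channel gene Kcnj2 rose by 0.50 log2 per day, and the sodium channel gene Scn4a fell by 0.17. The genotype extremes were the chloride channel gene Clcn1 at -0.53 ± 0.86 (well above background on 6 of 8 arrays) and the potassium channel gene Kcnn3 at 0.28 ± 0.36.

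Calcium effectors and cytosolic buffers, the role of Pvalb, had the largest share of rising genes of the 8 roles, 10 of 13, and 0 fell. Camk2b, a calmodulin-dependent kinase, rose by 1.06 ± 0.20 log2 per day (limma adjusted p = 0.0128), the calcineurin regulator Rcan2 by 0.51 and Phkg1, a phosphorylase kinase subunit, by 0.46. The myosin light chain kinase gene Mylk2 was 0.46 ± 0.36 log2 higher in the knockout and Mylk4 differed by -0.60 ± 0.34, lower on 4 of 4 days. Neither passed the genotype test.

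**Figure D4:**
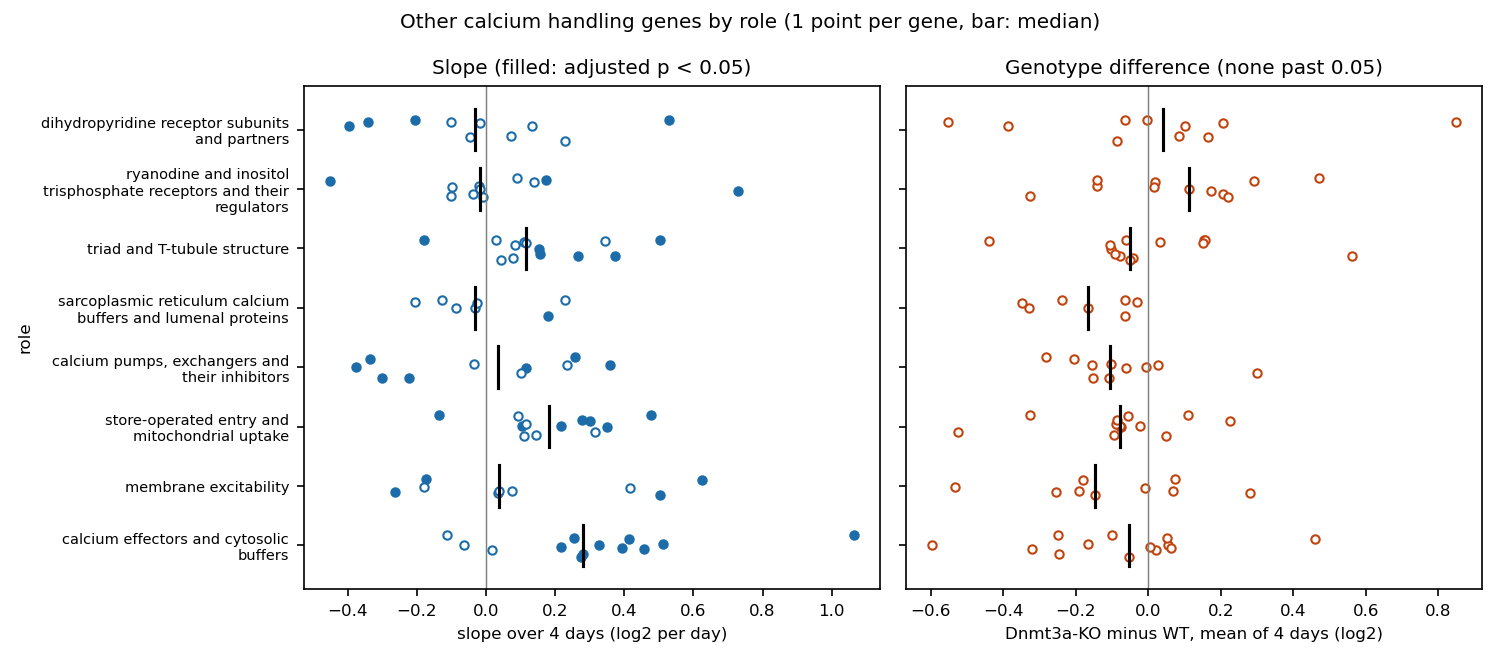
Slope over the days (left, log2 per day, filled where the adjusted p was under 0.05) and mean genotype difference (right, log2) of the 85 other calcium handling genes tested, 1 point per gene in 8 roles, with a bar at the median of each role. Calcium effectors have 10 filled points of 13, and on the right no point is filled.

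Contractile genes give the frame in which the 10 genes moved. Of 12 fast and developmental contractile genes tested, 10 rose over the days and 0 fell, with a median slope of 0.31 log2 per day, Myh2 the steepest at 2.28 and Myh8 the lowest at 0.030. Their median genotype difference was 0.032 log2, from Mybpc2 at 0.53 to Ckm at -0.017. Of 12 slow and cardiac contractile genes, 5 rose, with Myl2 the steepest at 1.498 and Tpm3 the lowest at -0.15. Their median genotype difference was -0.58 log2, from Ankrd1 at 0.19 to Myh7 at -2.06, and 1 of them, Myh6, passed the genotype test at -1.37 ± 0.075 (SD over 4 days, limma adjusted p = 0.0417). No gene passed in 10 of 17 alternatives, quantile scaling and the deposited value table among them, so the Myh6 call is lost there. Casq2 and Sln, both also known from slow or atrial muscle, differed by 0.047 and 0.46. Of 9 myogenic regulators, 1 rose and 4 fell, with a median genotype difference of 0.031, Myf6 the steepest at 0.51 log2 per day (limma adjusted p = 0.0505) and Myod1 the lowest at -0.33. The cardiac marker list of 9 genes summed to 227 to 236 on day 2 and to 411 to 508 later, with 4 of 9 above background on all arrays and the defining Myl7 and Hcn4 on none. Myl4, also known from developing skeletal muscle, made up 94.3% to 98.6% of that sum.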

How the data were processed

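Total RNA of 8 cultures was read on 1-colour (Cy3) Agilent arrays. Per the file headers, spot intensity was deposited as extracted by Agilent Feature Extraction 11.0.1.1 (day 2) and 9.5.3.1 (days 4, 5 and 6), with probe positions on mm9. The submitters' processing notes name version 9.5. The authors' deposited value table holds a score that equals the processed signal times 100 over the 75th percentile of all spots, within 1, with column medians of 6 or 7 and negative values set to 0. It served as an alternative.

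Processed intensity was divided by the 75th percentile of 43020 non-control spots (719.5 to 1528.1), floored at 0.00763 and taken to log2. Between 61.6% and 67.4% of spots were well above background. Names were updated by accession for 3357 of 26049 matched probes (RefSeq, GRCm38.p6). One probe per gene, the one with the highest mean, was kept, and limma 3.58.1 in R 4.3.3 tested genes that 4 or more of the 8 arrays had above background (Benjamini-Hochberg over all genes, threshold 0.05). Models were genotype with day as a block, slope per day beside a genotype term, and their interaction. The steps were tested on simulated data. Alternatives changed the scaling, background correction, floor, filter, probes, variance model, weights, blocks and days. The 10 genes and the lists were chosen with earlier results of these data known. From the wider list, up to 3 genes per role and direction with the largest slopes past the threshold are named, with the genotype extremes of each role. A few genes this rule would name are not reported here.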

Additional observations from a re-analysis of the deposited data

Results flagged for a closer look

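The genotype difference of Pvalb on day 4 was -0.35 log2, far from the 3 other days of that gene, which lay between 1.07 and 1.27. The gap to the nearest day, as a share of the range, was 0.879, above the Dixon critical value for 4 values. Chance marks about 1 in 20 such sets, and 10 genes were examined. The second Pvalb probe stood at -0.37 on day 4. In the scaled signals both the WT value of 7.59, the highest of the 4 WT arrays, and the Dnmt3a-KO value of 5.95 enter this difference.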

How the results depend on the processing

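For the genotype test, 0 of the 10 genes passed under any of 17 alternatives. The direction turned for Trdn with the mean of all probes (0.045) and with normexp (0.46). Leaving out 1 day turned Trdn (-0.13 to 0.047, above 0 without day 4 or 5) and, without day 2, Cacna1s (-0.029 to 0.10), Casq2 (-0.072 to 0.14) and Jph2 (-0.0032 to 0.078). Sln ranged from 0.37 to 0.99 over the alternatives, with adjusted p from 0.0742 to 0.9999. The count over all genes, 2, became 0 to 128.

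For the slope, leaving out 1 day gave 0 to 7 rising and 0 to 1 falling genes of the 10. Counts were 0 and 0 with normexp, with the slide as a block and within WT or Dnmt3a-KO alone. They were 2 rising without the filter on dim probes, 0 falling with the F test over days, and 2 falling with a normexp added after the data were seen, which leaves out spots over 50 units dimmer than their background. The count over all genes, 8920, became 0 to 13169. Leaving out 1 day turned Cacna1s (-0.058 to 0.36), Cacng1 (-0.062 to 0.28), Casq1 (-0.093 to 0.49), Casq2 (-0.075 to 0.13), Jph2 (-0.029 to 0.28) and Pvalb (-0.29 to 0.67), each below 0 only without day 2. The slide block leaves only the change from day 4 to day 5, so it cannot test the step after day 2. It turned Cacna1s (-0.038), Cacng1 (-0.31), Casq1 (-0.0012), Atp2a1 (0.019), Sln (-0.16) and Pvalb (-0.37). Quantile scaling turned Casq2 (-0.0065).

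On single days, the 2-fold count on day 2 was 5 with normexp, 0 with the added normexp and 2 at 1.5-fold. It was 1 on day 4 at 1.5-fold, and 9 with normexp and 2 at 1.5-fold on day 6. Normexp moved the median genotype difference of all genes to between -0.70 and -0.0084 on single days, and the added form to between -0.074 and 0.018. Where no cause is shown by the alternative's construction, the cause was not tested.

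No paired analysis by replicate number was possible because each genotype had 1 array per day. With 8 arrays, their number limits precision.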
